A study of Homo sapiens with 26 samples.

Results

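The integrated stress response (ISR) slows general protein synthesis through phosphorylation of the initiation factor eIF2α, while translation of the ATF4 mRNA, which carries short upstream reading frames, goes up. ATF4, a transcription factor, then switches on amino acid supply and redox genes and, together with its target DDIT3 (CHOP), a set of genes that feed back on the response. The 10 genes described here are transcription factors and direct feedback genes of that response: Atf4, Atf5 and Atf3, the CHOP gene Ddit3, the C/EBP family members Cebpb and Cebpg, and the feedback genes Trib3, Chac1, Sesn2 and Ddit4. They were chosen by name, and all 10 were found, as 10 of 55353 gene rows with mouse-style symbols in the input files and as 10 of 56638 gene rows with human symbols (the same names in capitals) in the files of gradient fractions.

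RNA was sequenced from SK-MEL-28, a human melanoma cell line, either kept in salubrinal for 72 h or left untreated (control). Salubrinal is a small molecule that blocks the dephosphorylation of eIF2α and thereby activates the ISR. The 26 samples were 13 salubrinal and 13 control samples: 1 input RNA sample per treatment, and 24 files from a sucrose gradient of 5 to 20% run after cycloheximide at 100 µg/mL for 12 min, whose 14 collected fractions were merged into the pools 40S, 60S, 80S and polysome; each pool has 3 replicates per treatment. The labels give the cycloheximide step for all samples, salubrinal and control alike. They name 1 cell line in the titles, which were followed, whereas the field for the line carries a running number, so that 26 names stand there. Levels are given in CPM, that is counts scaled to a common library size, which in the input was set by trimmed means of M-values (TMM). In the input, 7 melanocytic markers summed to 1326 CPM with salubrinal and 2708 CPM in control, with Mlana at 0 in both, while markers of fibroblasts, keratinocytes, leukocytes and endothelium summed to at most 5.17 CPM each.

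The depth differed widely between the 2 kinds of file. The input libraries held 10245548 counts on gene rows with salubrinal and 12068784 in control; 27.3% of all counts with salubrinal and 14.4% in control were not aligned. The sources used here do not name the reference behind the mouse-style rows of the input. Of these rows 30615 carry Gm or Rik names, a kind used for mouse genes, while the cells are human. How well human reads are counted on such rows was not tested. A low count on such a row need not mean low expression, and levels are not compared between genes. Fraction files held 361480 to 693970 counts on gene rows, but only 873 to 23714 outside ribosomal RNA (rRNA) rows. The labels do not tell whether replicates came from separate cultures. The p-values below therefore cover only the spread among these samples, which may be technical.

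ATF4 binds DNA as a dimer with C/EBP family proteins at composite elements (C/EBP-ATF response elements), and that motif is shown here for the genes of the set whose promoter stretch holds it, because these genes are compared with ATF4 below. RefSeq (GRCh38.p14) gave 19 promoter stretches for the 10 genes, each running from 250 bases before to 50 bases after a transcription start. The letters TGATGNAA, searched on both strands, were found in 3 of these 19 stretches, of ATF3, CHAC1 and CEBPG, and in 3.62% of all 35116 stretches of that length in the table. The stricter TGATGCAA, contained in the first motif, was found in 2 of the 19, of CHAC1 and CEBPG, and in 0.866% of all stretches. A match is a description of letters, and no match says only that these letters are not in this window. Each stretch below is read 5′ to 3′ on the strand of the gene, with the match in capitals.
ATF3, chr1:212565176-212565263, plus strand, match at bases -191 to -184 from the start: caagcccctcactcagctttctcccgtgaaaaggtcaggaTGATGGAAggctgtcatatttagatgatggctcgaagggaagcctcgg
CHAC1, chr15:40953222-40953309, plus strand, match on the opposite strand at bases -209 to -202: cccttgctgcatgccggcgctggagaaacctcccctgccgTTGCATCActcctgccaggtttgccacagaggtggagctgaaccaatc
CEBPG, chr19:33374060-33374089, plus strand, match at bases -42 to -35 from the second listed start: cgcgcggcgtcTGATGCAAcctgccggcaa

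The other motifs searched were those of related factors and of the stress response. TGACGTCA, the cAMP response element, and its core TGACGT were found in 0 of the 19 stretches, against 1.85 and 7.98% of all stretches, and the C/EBP palindrome TTGCGCAA in 0, against 0.151%. The AP-1 letters TGANTCA stood in 3 of the 19 stretches, of DDIT3 and ATF5 (7.71% of all), and the CCAAT box in 9, of 7 genes (34.6% of all). Stretches of a gene can overlap and count the same site more than once. That holds for the AP-1 and CCAAT sites of DDIT3 and the CCAAT site of CEBPB. The endoplasmic reticulum stress element was in none of them and in 0.0769% of all stretches.

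In input RNA most of the set was more abundant with salubrinal than in control. Of the 9 genes with at least 50 counts over both libraries, 8 were at least 2-fold higher with salubrinal, where 2.75% of the 10614 rows with that many counts were, and 1, Atf5, was at least 2-fold lower, where 3.8% of rows were. Their median log2 ratio of salubrinal over control was 1.82, beside 0.02 for all those rows. There was 1 input library per treatment, so no test was made, and the 95% intervals given are exact ones for counting error only; sequenced fragments are not independent molecules, so even that error is a lower estimate. In bulk RNA, more cells with a transcript and more of it per cell cannot be told apart.

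**Figure D1:**
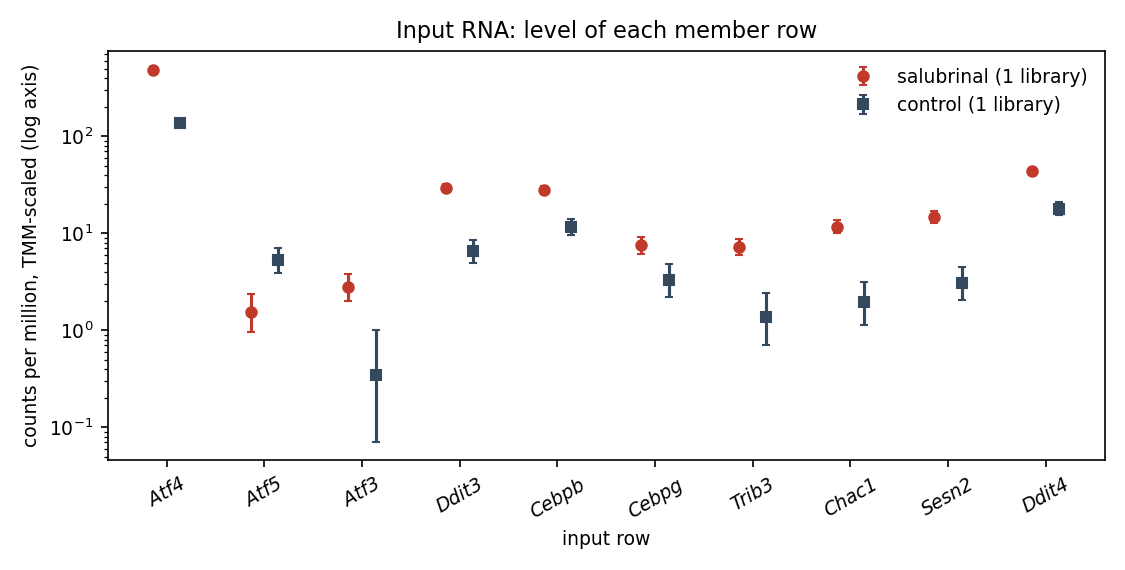
Level of the 10 rows in input RNA, in TMM-scaled CPM (log axis), with salubrinal (circles) and in control (squares); bars are exact 95% Poisson intervals, 1 library per treatment. The salubrinal point lies above the control point in 9 rows and below it in Atf5.

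Among the ATF factors, Atf4 was higher and its relative Atf5 lower. Atf4, the central factor of the response, had 6808 counts with salubrinal and 1184 in control, or 479.6 CPM (95% interval 468 to 491) and 136 CPM (128 to 144). That is a 3.53-fold level and a log2 ratio of 1.82 (1.73 to 1.91), rank 39 from the highest of 10614 rows. Atf5, a related factor with similar translational control, had 22 counts with salubrinal and 46 in control, or 1.55 CPM (0.971 to 2.35) and 5.28 CPM (3.87 to 7.04). Its log2 ratio of -1.66 (-2.57 to -1.01) placed it at rank 10554, and its interval overlapped that of none of the other 9 genes. Atf3, a stress-induced factor that can repress or activate, had 40 counts with salubrinal and 3 in control, too few for the minimum of 50. Its ratio was 8.18-fold, with a log2 ratio of 2.53 and a wide interval of 1.38 to 5.37.

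CHOP and both C/EBP genes were higher with salubrinal, CHOP by more. Ddit3, which encodes CHOP, a factor linked to cell death in lasting stress, had 418 counts with salubrinal and 57 in control, or 29.4 CPM (26.7 to 32.4) and 6.54 CPM (4.96 to 8.48), a log2 ratio of 2.14 (1.77 to 2.60). Cebpb, a dimer partner of ATF4 and CHOP, had 398 and 102 counts with salubrinal and in control, or 28.03 CPM (25.3 to 30.9) and 11.7 CPM (9.55 to 14.2). Its log2 ratio was 1.25 (0.94 to 1.59), and its interval lay wholly below that of Ddit3. Cebpg, a C/EBP protein without a classical activation domain that also pairs with ATF4, had 107 and 29 counts, or 7.54 CPM (6.18 to 9.11) with salubrinal and 3.33 CPM (2.23 to 4.78) in control. Its log2 ratio of 1.14 (0.58 to 1.82) was the lowest of the 8 higher genes, and its interval overlapped those of Ddit3, Cebpb and Atf4.

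All 4 feedback genes were higher with salubrinal. Chac1, which encodes an enzyme that degrades glutathione, had 167 counts with salubrinal and 17 in control, or 11.8 CPM (10.0 to 13.7) and 1.95 CPM (1.14 to 3.13), a 6.03-fold level. Its log2 ratio of 2.49 (1.87 to 3.41) was the highest among the 9 measured genes and stood at rank 8 of 10614. Trib3, which encodes a pseudokinase that binds ATF4 and dampens it, had 103 and 12 counts, or 7.26 CPM (5.92 to 8.80) with salubrinal and 1.38 CPM (0.712 to 2.41) in control, a log2 ratio of 2.26 (1.53 to 3.40). Sesn2, whose product senses leucine and restrains the growth kinase complex mTORC1, had 209 and 27 counts, or 14.7 CPM (12.8 to 16.9) with salubrinal and 3.10 CPM (2.04 to 4.51) in control, a log2 ratio of 2.19 (1.67 to 2.88). Ddit4 (REDD1), which restrains mTORC1 through the TSC complex, had 617 and 157 counts, or 43.5 CPM (40.1 to 47.0) with salubrinal and 18.03 CPM (15.3 to 21.1) in control. Its log2 ratio of 1.26 (1.01 to 1.53) had an interval below those of Atf4, Ddit3, Sesn2 and Chac1.

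The 9 measured genes differed in how far they stood from control. Chac1, Trib3, Sesn2 and Ddit3 had log2 ratios of 2.14 to 2.49 and ranks of 8 to 21, Atf4 stood just below them, and Ddit4, Cebpb and Cebpg had ratios of 1.14 to 1.26 and ranks of 151 to 208. Neighbours in this order had overlapping intervals, apart from the steps between Atf4 and Ddit4 and between Cebpg and Atf5. Counts per 1000 Atf4 counts do not depend on how the libraries are scaled. On that measure Chac1 stood at 24.5 with salubrinal and 14.4 in control, a 1.71-fold change relative to Atf4 (95% interval 1.03 to 3.01). It was the 1 gene whose interval lay above 1, with a lower limit close to 1 and only 17 control counts. The intervals make no allowance for the number of genes compared, and counting error is a lower estimate. A larger increase of Chac1 than of Atf4 is therefore not established. Cebpb was at 0.679-fold (0.540 to 0.860), Ddit4 at 0.684-fold (0.566 to 0.829) and Atf5 at 0.0832-fold (0.0475 to 0.142) relative to Atf4. For the other 5 genes the interval included 1, as for Ddit3 at 61.4 and 48.1 counts per 1000 Atf4 counts with salubrinal and in control (1.28-fold, 0.958 to 1.72).

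**Figure D2:**
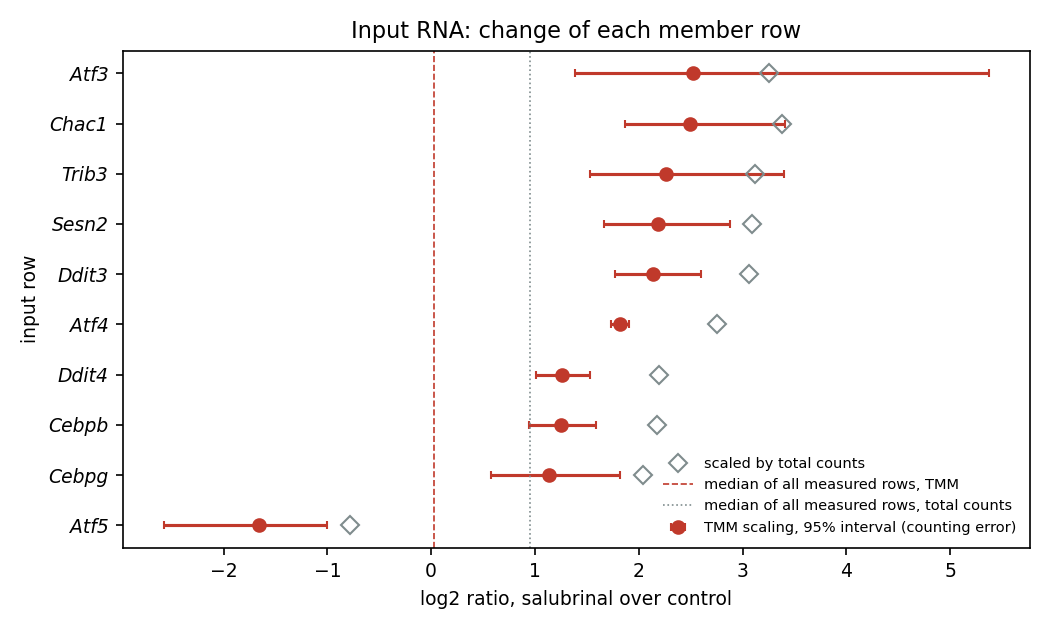
Log2 ratio of salubrinal over control for the 10 rows in input RNA, ordered by size, with exact 95% intervals for counting error (filled) and with scaling by total counts (open diamonds); vertical lines are the medians of all 10614 measured rows under each scaling. The 9 higher rows lie right of both lines and Atf5 lies left of both.

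The scaling of the 2 input libraries matters for these values. In control 1 row, CT010467.1, took 56.7% of gene-row counts, while the largest row with salubrinal, mt-Rnr2, took 17.8%. Scaling by the sum of all gene-row counts, without TMM, raised the median of all measured rows by 0.93 on the log2 scale and that of the 9 genes to 2.76. Relative to all rows the 9 genes stood at 1.79 under TMM and 1.81 under total counts, and Atf5 with total counts, at -0.78, stayed below the median of all rows, 0.95, but was no longer 2-fold lower. The 12 measured reference genes, such as Actb and Tbp, were not all level, with log2 ratios under TMM from -0.91 (Actb) to 0.52. Set against their median, the 9 genes had a median of 1.80, Atf4 of 1.80 and Atf5 of -1.68. The lower melanocytic marker level, the larger share of unaligned reads and the change of largest row went with salubrinal too, and their part in these ratios was not tested.

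Other ATF4 targets were also mostly higher, and most relatives of the set were not. Of 31 measured targets outside the set, 17 were higher with salubrinal by 2-fold or more and 0 lower by as much, with a median log2 ratio of 1.09. The highest was Asns (asparagine synthetase) at 3.20 (3.04 to 3.37), a ratio above those of all 10 genes, with an interval that overlapped those of Atf3, Chac1 and Trib3, and the lowest was the amino acid transporter gene Slc7a5 at -0.99. Serine, one-carbon and transsulfuration enzyme genes among the 17 were Aldh1l2 (2.21), Cth (1.94), Mthfd2 (1.64), Cbs (1.51), Psat1 (1.40), Psph (1.24) and Phgdh (1.05), and the alanine transaminase gene Gpt2 stood at 1.23. The tRNA synthetase genes Gars (1.69), Wars (1.67), Mars (1.35) and Sars (1.22) and the tRNA export gene Xpot (1.15) were higher too. The remaining ones were the growth factor gene Vegfa (2.04), Herpud1 (1.75) of endoplasmic reticulum protein degradation and the amino acid transporter gene Slc38a2 (1.09). Of 6 measured CHOP targets, 3 were at least 2-fold higher, namely Tsc22d3 at 1.85, Wars at 1.67 and the chaperone gene Dnajb9 at 1.42. Wars is also among the 17 ATF4 targets above. The other 3 were Ero1l at -0.22 (-0.42 to -0.02), Bbc3 at -0.03 (-0.84 to 0.80) and Bcl2l11 at -0.36 (-1.05 to 0.31). The phosphatase subunit gene Ppp1r15a, which closes the ISR loop, had 3 counts with salubrinal and 0 in control.

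The 26 measured genes of other bZIP factors, the family to which the ATF and C/EBP proteins belong, had a median of 0.07, near that of all rows. Of the 26, 4 were at least 2-fold higher, a larger share than the 2.75% among all measured rows. They were Xbp1 (1.85), a factor of the unfolded protein response, Nfil3 (1.34), Creb5 (1.18) and the AP-1 gene Fosl1 (1.08). Of the 26, 1 was lower by as much, Fos at -1.03 (-1.32 to -0.76), beside 3.8% of all measured rows. Paralogs of the feedback genes stood nearer to control than the genes themselves. Trib1 and Trib2 had log2 ratios of 0.54 (0.33 to 0.76) and 0.13 (0.03 to 0.24), below the interval of Trib3, and Sesn1 and Sesn3 had -0.30 (-0.80 to 0.19) and 0.71 (0.45 to 0.97), below that of Sesn2. Chac2 stood at -0.50 (-1.09 to 0.05), below Chac1, and Ddit4l had 0 and 1 counts with salubrinal and in control.

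Genes that act on the set or next to it were mostly less than 2-fold apart. Of 15 measured genes for turnover and control of ATF4, such as the ubiquitin ligase gene Btrc and the mRNA decay gene Upf1, 0 were 2-fold apart, with a median of -0.08 and the kinase gene Rps6ka3 highest at 0.75. Of 22 measured mTORC1 genes next to SESN2 and DDIT4 in the pathway, 0 were higher by 2-fold or more and 2 lower by as much. Of all measured rows, 2.75% were higher and 3.8% lower by as much. The 2 lower genes were Wdr24 at -1.44 (26 and 46 counts with salubrinal and in control) and Castor2 at -1.03 (29 and 38 counts). The 5 rows with at least 200 counts whose log2 ratio, over 2 libraries, was nearest to that of Atf4 were Xbp1 (1.85), Sec24d (1.77), Herpud1 (1.75), Serpine2 (1.92) and Gars (1.69), at distances of 0.03 to 0.12 from it.

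**Figure D3:**
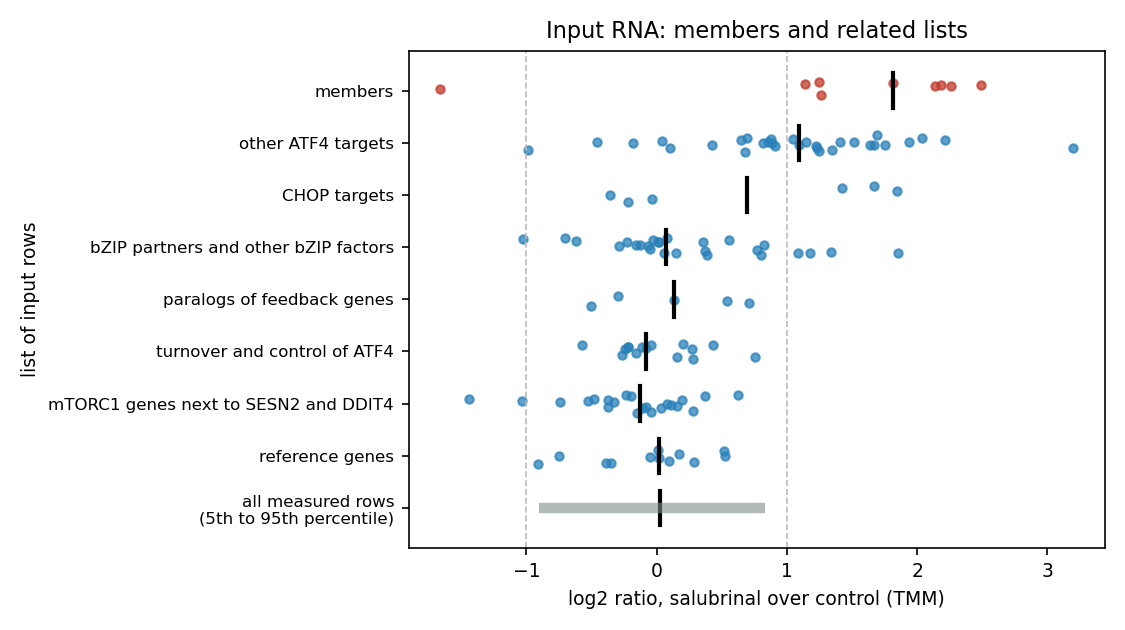
Log2 ratio of salubrinal over control in input RNA for measured genes of the set (members) and of 7 related lists without them; each point is a gene, black bars are medians, dashed lines mark 2-fold, and the grey bar spans the 5th to 95th percentile of all 10614 measured rows, -0.90 to 0.83. All 8 higher genes of the set lie beyond that span on the right and Atf5 on the left.

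The gradient fractions, which part RNA by its load of ribosomes, carried few reads of the set. Over all 24 files the 10 rows held 74 counts, 20 in the 12 salubrinal files of 87524 counts outside rRNA rows and 54 in the 12 control files of 202856. ATF3, CEBPG, CHAC1 and SESN2 had 0 counts, which allows up to 34.3 CPM outside rRNA over the salubrinal and 14.8 over the control files. ATF4 had 1 count, in the polysome file of salubrinal replicate 3, and 0 in control. TRIB3 had 2 counts with salubrinal and 3 in control, CEBPB 1 and 4, and DDIT4 0 and 1. At this depth no difference between treatments or fractions was detectable for these 8 genes; the input level of Atf4, 479.6 CPM with salubrinal and 136 CPM in control, refers to other row names and another denominator and is not set against them.

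**Figure D4:**
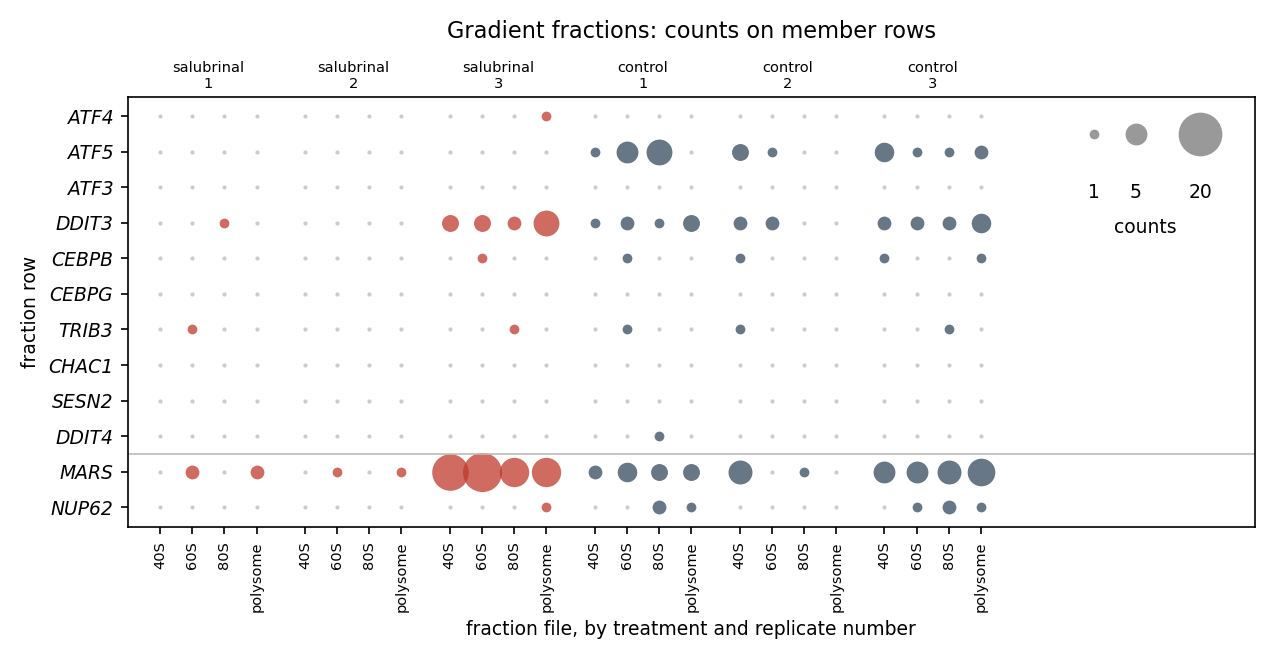
Counts on the 10 rows, and on the overlapping rows MARS and NUP62, in each of the 24 fraction files, grouped by treatment and replicate number as titled; the area of a dot is the count and small grey dots are 0. ATF5 has dots only in control files, and DDIT3 and MARS have their largest dots in salubrinal replicate 3.

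None of the 10 rows had enough reads to enter the comparison of treatments with edgeR's quasi-likelihood test after its filter on low counts. That test called 3.73% of 241 rows in polysome, 12.7% of 213 in 80S, 9.83% of 234 in 60S, 8% of 225 in 40S and 10.4% of 856 with the fractions of a library summed, and 0 of the 10 were among the rows tested. Without the filter, edgeR tested 4 of the 10 rows in each fraction and 6 in the sum, and called 0. At an unadjusted p under 0.05 it had ATF5 alone of these rows in 80S, 60S, 40S and the sum, and 0 of them in polysome. These are not separate results, because the fraction files of a library are not read as independent and the sum holds the same counts. Of all rows in those fits, 2.76% in 80S, 2.24% in 60S, 2.26% in 40S, 5.65% in the sum and 2.53% in polysome were at that level. DESeq2 gave no adjusted p for the 4 rows in 80S and the 6 rows in the sum, so they could not be called there, and it called 0 of the 4 rows in each of the other fractions. Its unadjusted p was under 0.05 for ATF5 in the sum, as for 1.72% of all rows, and for 0 of the rows in each single fraction, where 0.943% of all rows in polysome, 0.988% in 80S, 0.747% in 60S and 0.88% in 40S were at that level.

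In 4 of the 6 libraries the spread of row counts outside rRNA across the 4 fraction files was close to sampling noise. The same held for control replicates 1 and 2 once their 40S files were exchanged. Fractions are therefore not read as independent for these genes, and counts by fraction are given as description only. Across the 4 files, chi-square divided by its degrees of freedom came to 0.936 to 1.03 in the 3 salubrinal libraries and 0.994 in control replicate 3, against 1.57 to 8.15 between replicates of a fraction. It was 1.23 and 1.47 in control replicates 1 and 2 as titled, and 0.988 and 0.963 with their 40S files exchanged. As titled, control replicate 1 held 5705 counts outside rRNA in 40S, against 21903 in 60S, 21258 in 80S and 22017 in polysome. Control replicate 2 held 21295 in 40S, against 5760, 5526 and 5649 in those fractions. The names of the deposited 40S files carry the exchanged numbers too. The fractions were summed by the replicate number of the titles, with that exchange as an alternative. The summed libraries held 10158, 3768 and 73598 counts outside rRNA with salubrinal, against 70883, 38230 and 93743 in control, so that salubrinal replicate 3 carries most of what is known of the treated cells.

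ATF5 was found in every control library and in no salubrinal library. It had 0, 0 and 0 counts in salubrinal replicates 1, 2 and 3, against 13, 4 and 8 in control, or 183, 105 and 85.3 CPM outside rRNA. By fraction the 25 control counts were 8 in 40S, 7 in 60S, 8 in 80S and 2 in polysome. The groups did not overlap, but the share of all rows with such a pattern was not determined. A count of 0 allows up to 40.8 CPM in salubrinal replicate 3, below all control libraries. In salubrinal replicates 1 and 2 it allows 295 and 796 CPM, above all control libraries, so the difference rests on replicate 3. Over all salubrinal files 0 of 87524 counts allows up to 34.3 CPM, against 123 CPM (79.8 to 182) in control, and the control level over that floor is 3.60-fold. With the counting error of both treatments the limit on the pooled counts was lower, at 2.71-fold (exact conditional binomial, 95%). It treats reads as independent, leaves out the spread between libraries and was computed for ATF5 alone of the set. Of the 87524 salubrinal counts 73598 came from replicate 3, so it is not read as a bound on the effect of the treatment. The mean of 0 with salubrinal against 124 ± 52.0 in control (SD, n = 3) gave a two-sided exact permutation p of 0.1, the smallest that 3 against 3 can give. This test was added after the counts were seen. In edgeR without the filter ATF5 had an unadjusted p of 0.000217 and an adjusted p of 0.148 in the sum. With the filter, ATF5 entered only 2 of the 6 edgeR fits of the sum that leave out a replicate. It was called without salubrinal replicate 1 (edgeR adjusted p = 0.0149), in a fit that called 3.33% of 1382 rows. Without salubrinal replicate 3 it was not called (edgeR unadjusted p = 0.153, adjusted p = 0.492). With 0 counts in every salubrinal library, ATF5 passed the filter through its control counts alone. Such a row can only come out lower with salubrinal, so the call adds no support of its own. With the control 40S files exchanged the control mean was 116 ± 50.04 CPM (SD, n = 3), with the same exact permutation p of 0.1.

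The ATF5 row shares 599 bases with NUP62 and IL4I1, which lie on the opposite strand, and the sources used here do not say whether counting used strand. NUP62, the row of a nuclear pore gene, had 1 count with salubrinal and 7 in control over the fraction files, and IL4I1 had 0 and 1. In the input Nup62 had 169 and 165 counts, a log2 ratio of -0.66 (-0.99 to -0.35), above the interval of Atf5. Which gene the 25 ATF5 counts come from was not tested.

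DDIT3 was the row of the set with the most fraction reads, and its treatment groups overlapped. It had 1, 0 and 15 counts in salubrinal replicates 1, 2 and 3, against 7, 4 and 10 in control, or 98.4, 0 and 204 CPM outside rRNA against 98.8, 105 and 107. As titled, the salubrinal values lay on both sides of a narrow control range, which rests on 4 to 10 counts per library. The value of salubrinal replicate 1 rests on 1 count, in a library where 0 allows up to 295 CPM. That of replicate 2 rests on 3768 counts, where 0 allows up to 796 CPM. The means of 101 ± 102 with salubrinal and 103 ± 4.11 in control (SD, n = 3) differed by less than the spread between libraries (two-sided exact permutation p = 0.8, smallest possible 0.1). This mean gives each library the same weight. Pooled over files, DDIT3 had 16 counts with salubrinal and 21 in control, or 183 CPM (104 to 297) and 103.5 CPM (64.1 to 158), with overlapping intervals. In edgeR without the filter its log2 fold change in the sum was 0.86, also toward salubrinal (unadjusted p = 0.144, adjusted p = 0.648). With the control 40S files exchanged the control spread was larger, with a mean of 111 ± 20.3 CPM (SD, n = 3). The difference of means was then -9.81 CPM (exact permutation p = 0.9), and the narrow control range depends on the titled grouping. Leaving out salubrinal replicate 2 turned the difference from -2.60 to 47.8 CPM. By fraction DDIT3 had 7 counts in polysome and 3 each in 40S, 60S and 80S with salubrinal, against 7, 5, 6 and 3 in polysome, 40S, 60S and 80S in control.

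The row MARS, of a methionyl-tRNA synthetase gene that overlaps the end of DDIT3 by 65 bases on the opposite strand, held more reads than DDIT3. It had 4, 2 and 48 counts in salubrinal replicates 1, 2 and 3, against 12, 7 and 24 in control, or 394, 531 and 652 CPM outside rRNA against 169, 183 and 256. The values of salubrinal replicates 1 and 2 rest on 4 and 2 counts, in libraries where 0 counts allows up to 295 and 796 CPM. Of the 54 salubrinal counts 48 came from replicate 3. The groups did not overlap, but the share of all rows without overlap was not determined. The means were 526 ± 129 and 203 ± 46.6 in salubrinal and control (SD, n = 3). The two-sided exact permutation p was 0.1, the smallest possible, in a test added after the counts were seen. In CPM of all gene rows, rRNA included, the means were 10.3 ± 14.9 and 7.93 ± 7.41 (exact permutation p = 1), where the groups overlapped. In the input, with 1 library per treatment, Mars was higher with salubrinal, at 1.35 (1.24 to 1.46) from 3444 and 829 counts. With the control 40S files exchanged the control mean of MARS was 191 ± 62.0 CPM outside rRNA (exact permutation p = 0.1). How many of the reads on either row come from the other gene was not tested.

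**Figure D5:**
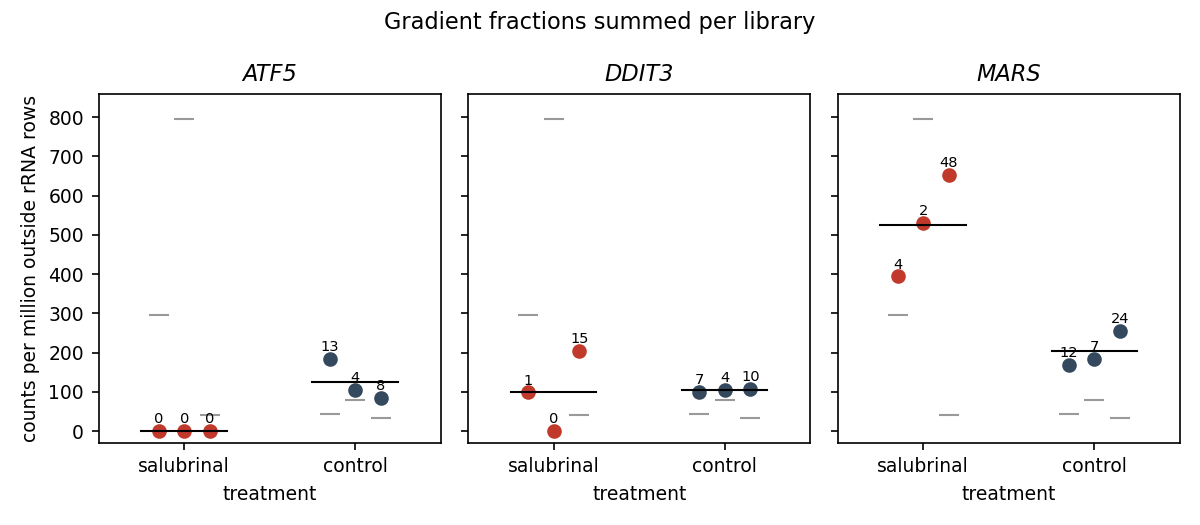
ATF5, DDIT3 and MARS in the 6 summed libraries, in CPM outside rRNA rows, salubrinal left and control right; numbers above points are raw counts, black lines are group means, and grey dashes show the level that 0 counts allows in that library. ATF5 is at 0 in all salubrinal libraries, DDIT3 overlaps between treatments, and MARS does not.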

How the data were processed

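The deposited files hold whole-number read counts per gene row, with no normalization in the deposited values. The submitters' processing notes name build hg19 and, as tools, HTSeq 0.5.3p3, STAR, DESeq, FastQC 0.11.5 and SAMtools 0.1.19.24. That build is human, and no other is named for the input rows with mouse-style symbols. The libraries were stranded, per the labels' protocols. Rows that name no gene were left out; gene rows held 4.72 to 5.79% of counts in fraction files, 7.06% in the salubrinal and 5.94% in the control input.

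For the input, counts were scaled by TMM and log2 ratios took a prior of 2 counts, and exact conditional binomial intervals at 95%. Fractions were compared in R 4.3.3 with edgeR 4.0.16 (TMM, filterByExpr, robust glmQLFit, Benjamini-Hochberg at 0.05) and DESeq2 1.42.0 as an alternative. The edgeR code alone was run on simulated counts, with libraries of equal size and no rRNA rows. That run does not cover the unequal depth and the rRNA share of these libraries. Single rows of summed libraries were compared with exact permutation tests in scipy 1.17.1. The floor of a count of 0 is 3 counts. Names and overlaps come from RefSeq (GRCh38.p14), which matched 33311 of 56638 fraction rows.

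All 10 genes were named in each comparison, and list genes where at least 2-fold apart. Measured paralogs, the 5 rows nearest Atf4 and rows that overlap the 10 genes were named too. Slc7a5, Ppp1r15a, Ero1l, Bbc3, Bcl2l11, Btrc, Upf1, Rps6ka3, Ddit4l, Actb and Tbp were named after their values were seen. Genes and lists were chosen with earlier results of these data known. Alternatives were other scalings, filters, prior counts, count minimums, a replicate block and leaving out each replicate.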

Additional observations from a re-analysis of the deposited data

How the results depend on the processing

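Of 50 recomputed ratios of single genes in the input, 43 stayed within their counting interval and 7 moved out of it. All 7 moved with total-count scaling, and none of the 50 changed sign. Atf3, Trib3 and Chac1, with wide intervals, stayed within theirs under that scaling. The median of all measured rows was 0.0233 under TMM and 0.949 with total counts. RLE size factors, a reduced row set and reference genes left it at 0.00857 to 0.0239, so they could hardly move a ratio. A prior count of 0.5 does not change the scaling. The 43 therefore say little about stability. With total counts the median of the measured genes was 2.76 and 0 were at least 2-fold lower. With a minimum of 200 counts 5 genes were at least 2-fold higher and 0 lower, because fewer genes were counted. RLE size factors, a reduced row set, reference genes, a prior count of 0.5 and a minimum of 10 counts kept these counts within 1.5 times. In single fractions the 10 rows entered no fit other than DESeq2 and edgeR without the filter (4 rows each), so their 0 calls in the other fits say nothing about stability. In the sum, 0 to 1 rows were called when a replicate was left out (ATF5, without salubrinal replicate 1), in fits that held at most 2 of them. ATF5 passed the filter there through its control counts alone. The DDIT3 difference ran from -54.1 to 47.8 CPM outside rRNA when a replicate was left out. In the fit of the sum with the replicate block 0 of the 10 rows were tested and thus 0 called, and 29 of 856 rows in all were called, against 89 without it; same-numbered summed libraries deviated together at correlations of -0.02, 0.14 and 0.30, and 4 of 6 correlated best with their own number, so the numbers were not taken as pairs. With the 40S files of control replicates 1 and 2 exchanged, 52 of 913 rows were called, and library sizes alone gave 0, with 0 rows at an unadjusted p under 0.05 (edgeR). DESeq2 called 48 of 10224 rows in the sum, and edgeR without the filter 6. Over these alternatives the calls ranged from 0 to 39 in polysome, 0 to 46 in 80S, 0 to 39 in 60S, 0 to 47 in 40S and 0 to 142 in the sum. The low counts outside rRNA, the similarity of the fraction files of a library and the 40S numbering each limit the fraction data.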
